A study of Mus musculus with 5 samples.

Results

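The cells described here were the CMP cells that carried transcripts of Elane, the gene of neutrophil elastase, without many of Irf8, a transcription factor gene of monocytes and dendritic cells. Of 3713 cells kept from the common myeloid progenitor (CMP) library, 381 had 5 or more unique molecular identifiers (UMIs) of Elane and fewer than 5 of Irf8, and these are called CMP Elane cells. They made up 10.3% of the library (exact 95% Clopper-Pearson interval 9.30 to 11.3%), and they were 381 of the 28894 cells kept over the whole series. They were chosen by their measured Elane and Irf8 counts, so the levels of these genes are given only as a description. The other 3332 CMP cells were the comparison, and 4559 cells of the granulocyte/monocyte progenitor (GMP) library that met the same rule were set beside them.

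The series holds single-cell 3' RNA counts of bone marrow from healthy wild-type C57BL/6 mice, sorted into 4 gates. CMP and GMP cells alike lacked lineage antigens and SCA1 and carried KIT. CMP cells were CD34-positive and CD16/32-negative, and GMP cells were positive for both CD34 and CD16/32. Each gate was 1 library, and the number of mice behind it is not given in the sources used here. Differences therefore have no replicate check and no p-value, and intervals are 95% intervals that cover counting error only.

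Neutrophil elastase, proteinase 3 (Prtn3), cathepsin G (Ctsg) and myeloperoxidase (Mpo) are made in promyelocytes and early progenitors and are packed into primary, or azurophil, granules. C/EBPalpha, PU.1, RUNX1 and MYB are known to act on promoters of such genes, while C/EBPepsilon is needed for the later secondary granules, whose proteins include cathelicidin (Camp) and neutrophilic granule protein (Ngp). CD16/32, the low-affinity Fc gamma receptors by which GMP are sorted from CMP, are encoded by Fcgr3 and Fcgr2b.

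The promoters of the 4 primary granule enzyme genes with the most UMIs in the CMP Elane cells are shown because their transcripts were high together in these cells. Each line gives the 250 bases before the RefSeq start of the gene, 5′ to 3′, from RefSeq's GRCm38.p6 table. Capitals mark GAGGAA, a core sequence of PU.1 sites, searched on both strands. The windows are chr10:79886062-79886311 on the plus strand for Elane, chr10:79879417-79879666 on the plus strand for Prtn3, chr11:87793534-87793783 on the plus strand for Mpo and chr14:56102575-56102824 on the minus strand for Ctsg.
Elane: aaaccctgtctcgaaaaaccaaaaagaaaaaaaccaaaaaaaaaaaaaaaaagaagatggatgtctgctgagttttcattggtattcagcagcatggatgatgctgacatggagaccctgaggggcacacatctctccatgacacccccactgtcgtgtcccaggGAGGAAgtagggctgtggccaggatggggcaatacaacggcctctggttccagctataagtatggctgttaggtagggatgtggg
Prtn3: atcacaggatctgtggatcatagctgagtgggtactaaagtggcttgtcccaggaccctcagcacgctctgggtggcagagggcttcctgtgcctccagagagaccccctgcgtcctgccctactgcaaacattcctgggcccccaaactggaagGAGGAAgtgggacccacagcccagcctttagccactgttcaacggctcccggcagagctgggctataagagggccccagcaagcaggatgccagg
Mpo: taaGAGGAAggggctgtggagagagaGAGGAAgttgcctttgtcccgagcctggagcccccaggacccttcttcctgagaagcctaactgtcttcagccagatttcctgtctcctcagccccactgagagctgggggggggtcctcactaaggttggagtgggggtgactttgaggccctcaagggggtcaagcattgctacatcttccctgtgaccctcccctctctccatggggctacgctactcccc
Ctsg: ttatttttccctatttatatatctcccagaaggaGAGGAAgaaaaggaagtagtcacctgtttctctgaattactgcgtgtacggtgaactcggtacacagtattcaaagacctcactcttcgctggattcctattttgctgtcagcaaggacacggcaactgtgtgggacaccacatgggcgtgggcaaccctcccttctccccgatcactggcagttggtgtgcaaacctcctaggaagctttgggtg

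GAGGAA occurred in all 4 windows, and 25.9% of 27025 genes with a window of this length had it on either strand. It ended 79 bases before the start in Elane and 89 in Prtn3, but 210 bases before it in Ctsg, while Mpo held 2 matches, 218 and 241 bases before the start. TAACNG, a MYB core, was found in Elane and Mpo and in 22.3% of genes, TGTGGT, a RUNX core, in Ctsg alone and in 15.9% of genes, and TTGCNNAA, a C/EBP sequence, in none of the 4 and in 10.8% of genes. All were searched on both strands, and none of these motifs contains another. The matches are a description of these windows. Elane (protein-coding, chromosome 10, 79886247 to 79888215, plus strand) and Prtn3 (chromosome 10, 79874476 to 79883174, plus strand) lie close together in the GENCODE M21 annotation of GRCm38. Mpo lies at chromosome 11, 87793581 to 87804413, plus strand, and Ctsg at chromosome 14, 56099881 to 56102574, minus strand; GENCODE begins Elane, Prtn3 and Mpo upstream of the RefSeq start used for the windows.

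The CMP cells held 26919088 UMIs, of which the Elane cells had 3282356. The median Elane cell had 8251 UMIs and 2412 genes, against 6715 UMIs and 2194 genes in the other CMP cells. The GMP library held 8027 cells with a median of 9100 UMIs. The 2 CMP samples of the series held identical matrices and were used once; this matrix has 3738 barcodes, while the design text names 12185 CMP cells. Of the 381 cell barcodes, 5 also occurred among the LSK cells, 2 among the GMP cells and 3 among those of the megakaryocyte/erythroid gate (MEP). Levels are CPM, a gene's UMIs summed over the cells of a group and scaled to the same total in each group. Calls of higher or lower needed at least 50 CPM in one group and a 2-fold ratio or beyond.

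Elane itself ranged over 5 to 392 UMIs per cell among the CMP Elane cells, with a median of 15. Cells just inside the limit, with 5 or 6 Elane UMIs (61 cells), had 2737 CPM of Mpo and 272 CPM of Ms4a3. Cells just outside it, with 3 or 4 and under 5 of Irf8 (101 cells), had 2328 CPM of Mpo and 175 CPM of Ms4a3. On the Irf8 side, cells with 3 or 4 Irf8 UMIs (123 cells) had 3615 CPM of Mpo and 38.4 CPM of Fcgr3, against 3550 and 31.3 CPM in cells with 5 or 6 (95 cells). The cells are a range of counts cut at these limits, and no clustering was run. With every cell thinned to 3000 UMIs, leaving out 242 shallower CMP cells, the rule took 370 of 3471 cells, or 10.7% (9.65 to 11.7%). These need not be the same cells, since thinning lowers the counts of both Elane and Irf8, and their overlap was not counted. Against other CMP cells, 72 genes were then called lower, with 25 of the 34 called without thinning among them. Of the 30 called higher, 18 were among the 19 called without thinning.

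The label of the cells was checked against Mpo and Prtn3, which the rule did not count. Mpo had a UMI in 380 of the 381 cells, or 99.7%, and Prtn3 in all of them, against 78.9% and 80.5% of the other CMP cells. After thinning, Mpo was seen in 99.5% of CMP Elane cells and in 75.5% of the other CMP cells. It was also seen in 24.0% of 121 CMP cells with 5 or more UMIs of the platelet gene Pf4, and in 0.064% of MEP cells. Whether the Mpo UMIs of the Pf4 cells were background was not tested. Elane was seen in 4.13% (1.36 to 9.38%) of those Pf4 cells after thinning, against 96.6% of the CMP Elane cells. The rule counted Elane, so this contrast was set by the choice of cells and is no check of the label. The Pf4 cells were taken from the other CMP cells, which left out 1 CMP Elane cell with 5 or more Pf4 UMIs. The median depths before thinning were 8251 UMIs in CMP Elane cells, 6715 in other CMP cells and 7326 in the Pf4 cells.

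The primary granule enzymes were high as a group in the CMP Elane cells. Over all 2721 genes with 50 CPM or more, 19 were called higher, 0.698%, and 34 lower, 1.25%, and the median log2 ratio was near 0 (0.0037). The 2 genes that the rule counted are included, Elane among the higher and Irf8 among the lower. Of the 5 granule enzymes on the list beside Elane, 4 were called higher. The median Elane cell had 27 Mpo UMIs (quartiles 20 and 37), 24 Prtn3 UMIs (17 and 35) and 28 Ctsg UMIs (19 and 38). The median of the other CMP cells was 6 UMIs of Mpo, 7 of Prtn3 and 6 of Ctsg. Most Elane cells therefore lay above most other cells, though both groups reached 0 or 1 UMI at the low end for each of these genes. The 1 Elane cell with 0 Mpo UMIs was among the 4 cells rich in late neutrophil UMIs that are described below.

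Mpo, which makes hypochlorous acid in phagosomes, had 3410 CPM in CMP Elane cells and 1532 CPM in other CMP cells, a log2 ratio of 1.15 (1.12 to 1.19). Ctsg, a serine protease, had 3435 and 1540 CPM, a log2 ratio of 1.16 (1.13 to 1.19). Prtn3, its relative, had 3066 CPM in CMP Elane cells and 1532 CPM in other CMP cells, a log2 ratio of 1.001 (0.97 to 1.03), which lies at the 2-fold limit. Prss57, neutrophil serine protease 4, was lower in count and had 106 CPM in CMP Elane cells against 46.2 CPM in the others, a log2 ratio of 1.19 (1.02 to 1.37). Lyz2, lysozyme, had 379 CPM against 234 CPM and was not called.

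Genes that handle these enzymes differed less. None of the 8 listed genes for processing, inhibition and packing was called, and the 7 with 10 CPM or more had a median log2 ratio of 0.22, against -0.06 over all 6829 genes at that level. Calr, the chaperone that Mpo needs to fold, had 1981 CPM in CMP Elane cells and 1204 CPM in other CMP cells. Srgn, the proteoglycan that packs granule proteases, had 1379 and 1227 CPM, and Serpinb1a, an inhibitor of elastase, 427 and 332 CPM. All 16 genes of the endoplasmic reticulum and secretory list had a log2 ratio above 0, with a median of 0.42, and none was called. Among them, the chaperone Hspa5 had 842 CPM in CMP Elane cells and 563 CPM in the others, and the disulfide isomerase Pdia6 had 699.8 and 489 CPM.

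Several genes beyond the enzymes were also called higher. Ms4a3, a membrane protein of granulocyte-monocyte progenitors, had 421 CPM in CMP Elane cells and 89.9 CPM in other CMP cells, a log2 ratio of 2.23 (2.13 to 2.33). It was seen in 72.2% of CMP Elane cells and 25.8% of the others, and after thinning in 53.3 and 15.6%, against 9.09% of the Pf4 cells. Trem3, a receptor of the TREM family, had 72.5 and 17.4 CPM, and Igsf6, an immunoglobulin superfamily member of myeloid cells, 89.6 and 31.7 CPM. Hp, haptoglobin, had 136 CPM in CMP Elane cells against 47.1 CPM in other CMP cells, and Mgst1, a glutathione transferase, 85.9 against 32.1 CPM. Of the 10 granulocyte-monocyte progenitor markers, 5 were called higher and none lower, and 3 of the 5 are granule enzymes already given.

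Camp and S100a8 had log2 ratios of 3.14 and 2.87 over other CMP cells, but their UMIs sat in a few cells. Of 7005 UMIs of 6 late neutrophil genes (Camp, Ngp, S100a8, S100a9, Ltf and Lcn2) in the CMP Elane cells, 99.3% were in 4 cells with 50 or more such UMIs. Only 51 of the 381 cells had any. One of the 4 cells had 3055 late UMIs of 7642 in all, with 13 of Elane and 1 of Mpo, another 2391 of 7723, with 29 of Elane and 0 of Mpo, and another 1442 of 8928, with 48 of Elane and 3 of Mpo. The remaining one had 66 late UMIs, nearly all of S100a8, and the highest Elane count, 392, with 116 of Mpo. All 4 had 0 Kit UMIs, and 33.6% of all CMP Elane cells had any. In the other CMP cells, 3 of 3332 cells held 95.8% of the late UMIs. Without these cells, an alternative chosen after the data were seen, Camp had 2.16 CPM in CMP Elane cells and 2.63 CPM in other CMP cells, and S100a8 4.31 and 4.61 CPM. The number of genes called higher was then 13, and 34 were lower; Prtn3 was no longer called, with a log2 ratio of 0.995. The ratios of Mpo and Ctsg were 1.15 and 1.16 without them, and Lyz2 had 299 CPM in CMP Elane cells and 224 CPM in other CMP cells.

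**Figure D1:**
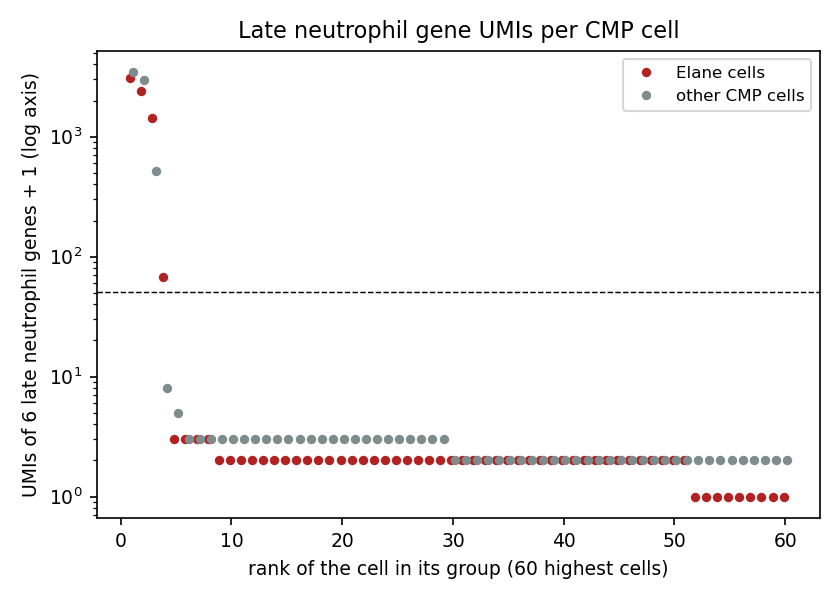
UMIs of 6 late neutrophil genes (plus 1, log axis) in the 60 highest cells of each group, by rank; each point is a cell, Elane cells in red and other CMP cells in grey, and the dashed line marks 50 UMIs. In the Elane cells 4 points lie above the line, up to 3055 UMIs, and in the other CMP cells 3.

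Among myeloid transcription factors, C/EBP genes had ratios above 0. Cebpe, the C/EBP factor of the secondary granule stage, had 33.2 CPM (27.3 to 40.0) in CMP Elane cells against 3.22 CPM in other CMP cells, a log2 ratio of 3.37 (2.93 to 3.81), but stayed under the 50 CPM that a call needs. It was seen in 57 of the 381 cells, 14.96%, against 1.65% of the others, and after thinning in 6.33% and 0.970% of cells, against 0 of 121 Pf4 cells (0 to 3.003%). Without the late neutrophil cells it had 25.3 and 2.63 CPM. Cebpa, which drives the step to granulocyte-monocyte progenitors, had 106 CPM in CMP Elane cells and 53.8 CPM in other CMP cells, a log2 ratio of 0.98 (0.80 to 1.15). Cebpb had 126 and 84.5 CPM. Gfi1, a repressor of monocyte genes in granulocytes, had 14.6 CPM against 5.84 CPM, a log2 ratio of 1.33 (0.82 to 1.81). This rests on 48 Gfi1 UMIs in the CMP Elane cells. After thinning, Gfi1 was seen in 3.43% (1.84 to 5.79%) of CMP Elane cells and 1.81% (1.37 to 2.35%) of other CMP cells, and these intervals overlap.

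Factors shared by myeloid progenitors showed smaller differences. Spi1, the gene of PU.1, had 240.1 CPM in CMP Elane cells and 220.5 CPM in other CMP cells. Runx1 had 97.2 and 107 CPM, a log2 ratio of -0.14 (-0.31 to 0.03), and Myb 141 and 126 CPM. Myc had 96.6 and 72.6 CPM. Klf4, a monocyte factor, had 7.01 CPM in CMP Elane cells and 23.3 CPM in other CMP cells. Irf8, which the rule held under 5 UMIs, had 197 and 683 CPM.

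The transcripts of the sorting antigens showed CD16 where the gate was CD16/32-negative. Fcgr3, which encodes CD16 (chromosome 1, 171051174 to 171064935, minus strand), had 35.0 CPM in CMP Elane cells and 10.9 CPM in other CMP cells, a log2 ratio of 1.68 (1.35 to 2.01). After thinning it was seen in 10.0% (7.19 to 13.5%) of CMP Elane cells, 2.46% (1.94 to 3.07%) of other CMP cells and 0 of 121 Pf4 cells, which allows up to 3.003%. Fcgr2b, which encodes CD32, had 51.5 and 31.4 CPM, a log2 ratio of 0.71 (0.46 to 0.96). Cd34 had 261 CPM in CMP Elane cells against 230.4 CPM in other CMP cells. Kit differed by less than its counting error, with 48.7 CPM against 46.5 CPM, a log2 ratio of 0.07 (-0.18 to 0.31).

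No cytokine receptor of the list reached the 50 CPM that a call needs, so that none could be called. Csf3r, the G-CSF receptor, had 17.4 CPM in CMP Elane cells and 13.3 CPM in other CMP cells, a log2 ratio of 0.38 (-0.05 to 0.79). The GM-CSF receptor genes Csf2ra and Csf2rb had log2 ratios of -0.02 (-0.33 to 0.27) and 0.03 (-0.41 to 0.45). Csf1r, the M-CSF receptor, had 11.3 and 13.7 CPM, and Flt3, the receptor of lymphoid and dendritic progenitors, 25.3 and 41.9 CPM, a log2 ratio of -0.73 (-1.07 to -0.41). Il6st, the gp130 chain shared by interleukin 6 family receptors, had 5.18 and 14.0 CPM, a log2 ratio of -1.44 (-2.24 to -0.74).

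Genes of dividing cells were lower in CMP Elane cells at the G2 and mitosis end. All 12 genes of that list had log2 ratios under 0, with a median of -0.755, and 2 were called lower. Ube2c, a ubiquitin-conjugating enzyme of mitosis, had 74.0 CPM in CMP Elane cells and 214 CPM in other CMP cells, a log2 ratio of -1.53 (-1.73 to -1.35). Mki67, the gene of the Ki-67 antigen, had 48.7 CPM in CMP Elane cells and 112 CPM in other CMP cells, a log2 ratio of -1.20 (-1.44 to -0.97), and was also called. Top2a had 157 CPM in CMP Elane cells against 272 CPM in the others. The 12 S phase genes showed no such shift, with a median log2 ratio of -0.02, and Mcm6 had 186 and 184 CPM. Ribosome biogenesis and glycolysis genes were all above 0, with medians of 0.145 and 0.259, and none of the 12 in either list was called.

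Genes of other blood lineages were low in CMP Elane cells. Cd74 and H2-Aa, of the MHC class II pathway, had 4.57 and 6.70 CPM in CMP Elane cells, against 243 and 122 CPM in other CMP cells. The rule itself put every cell with 5 or more Irf8 UMIs in the comparison. The dendritic and MHC class II list summed to 3764 CPM in the 876 cells with that many of Irf8 but not of Elane. Its sum was 838 CPM in CMP Elane cells and 711 CPM in cells with fewer than 5 UMIs of either gene. Car1, carbonic anhydrase 1 of erythroid cells, had 5.79 against 84.4 CPM. Pf4 had 82.3 against 375 CPM, and of its UMIs in the Elane cells 246 were in 1 cell, with at most 2 in any other. Gata2, a factor of stem, mast and megakaryocyte progenitors, had 29.9 and 67.8 CPM, and Apoe 191 and 488 CPM. Medians were -4.19 for the dendritic and MHC class II list, -3.32 for the erythroid, -2.33 for the megakaryocyte and -0.69 for the stem and multipotent list. The B cell gene Pax5, the T cell gene Cd3e and the eosinophil gene Epx had 0 UMIs in the CMP Elane cells and in the other CMP cells. Cd79b of the B cell list had 45.1 CPM in CMP Elane cells and 42.4 CPM in other CMP cells, and Nkg7 of the T and NK cell list 536 and 407 CPM. The basophil and mast list went the other way in part. Mcpt8, a basophil protease, had 109 CPM in CMP Elane cells and 50.7 CPM in other CMP cells, a log2 ratio of 1.10 (0.93 to 1.27), and was called higher, while Ms4a2, a chain of the IgE receptor, had 5.18 against 22.4 CPM.

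**Figure D2:**
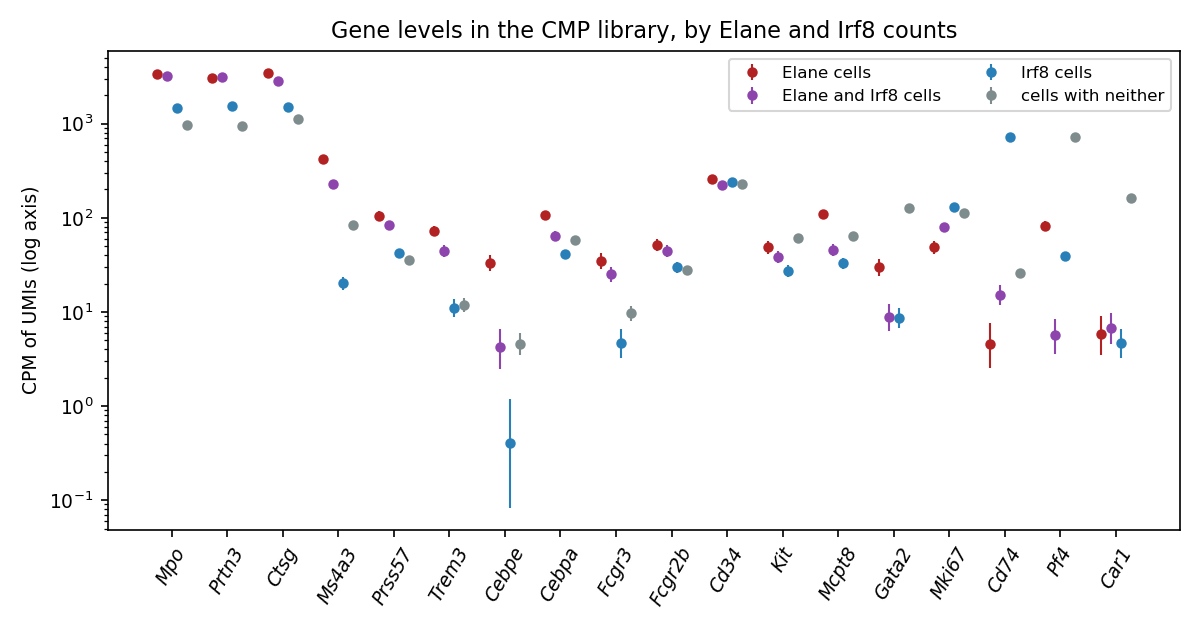
Level (CPM, log axis) of 18 genes in the CMP library by counts of Elane and Irf8: Elane cells (381), cells with 5 or more UMIs of both (407), of Irf8 alone (876) and of neither (2049); bars are 95% Poisson intervals. Mpo is close in the first 2 groups (3410 and 3239.8 CPM), while Cebpe has 33.2 CPM in the Elane cells and at most 4.62 CPM in the other 3 groups.

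Across the rule's limit on Irf8 lay the 407 CMP cells with 5 or more UMIs of both Elane and Irf8, which had a median of 9905 UMIs. The granule enzymes were close: Mpo had 3410 CPM in CMP Elane cells and 3239.8 CPM in cells with both, Prtn3 3066 and 3165 CPM, and Ctsg 3435 and 2828 CPM. Other early granulocyte genes were not: Ms4a3 had 421 and 229 CPM, and Cebpe 33.2 and 4.22 CPM. Monocyte genes stood the other way, with 162 CPM of Ly6c2, the Ly6C antigen, in CMP Elane cells and 414 CPM in cells with both, and 91.4 and 242 CPM of Ly86. The basophil and mast list summed to 442 CPM in CMP Elane cells and 77.1 CPM in cells with both. Cpa3, mast cell carboxypeptidase, made up most of that, with 291 CPM (272 to 310) against 19.9 CPM (15.9 to 24.6), and Gata2 had 29.9 and 8.91 CPM. Irf8 itself was set apart between these groups by the rule.

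Within the CMP Elane cells, levels were followed over 4 groups of 95 or 96 cells ordered by the share of Elane among a cell's UMIs, from lowest to highest. Elane had 722, 1416, 2598 and 6213 CPM in them by construction. Mpo followed with 2711, 3015, 3507 and 4529 CPM, and Ctsg with 2781, 3369.9, 3488 and 4222 CPM. Ms4a3 had 236, 237, 446 and 797 CPM, so that its difference lay in the upper 2 groups. Fcgr3 had 12.9, 27.3, 37.7 and 66.2 CPM, while Fcgr2b had 44.0, 49.5, 62.8 and 50.9 CPM. Ly6c2 had 83.6, 124, 181 and 273 CPM. Cd34 showed no such order, with 284, 259, 239.8 and 257 CPM.

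Between the highest and the lowest of the 4 groups, 34 of 2715 genes were called higher (1.25%), Elane among them by construction, and 25 lower (0.921%). The 4 genes with the largest ratios, S100a8, Camp, S100a9 and Ngp, had their UMIs almost wholly in the late neutrophil cells, and without those cells 22 genes of 2712 were called higher and 28 lower. Egr1, an immediate early gene, had 182, 108, 100.4 and 53.5 CPM from the lowest to the highest group, and Apoe 297, 216, 128 and 106 CPM. Cpa3 had 415, 263, 275 and 186 CPM. The G2 and mitosis list summed to 1233, 776, 845 and 723 CPM, and the endoplasmic reticulum list to 7650.3, 8273, 8824 and 9732 CPM. The lowest group also had the most UMIs per cell, a median of 9310 against 7802, 7992 and 8073, and the part of depth in these orders was not tested. The 4 late neutrophil cells fell in the second and the highest group. Without them, Cebpe had 11.9, 27.6, 16.4 and 47.9 CPM, and Ms4a3 239, 229, 451 and 738 CPM.

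**Figure D3:**
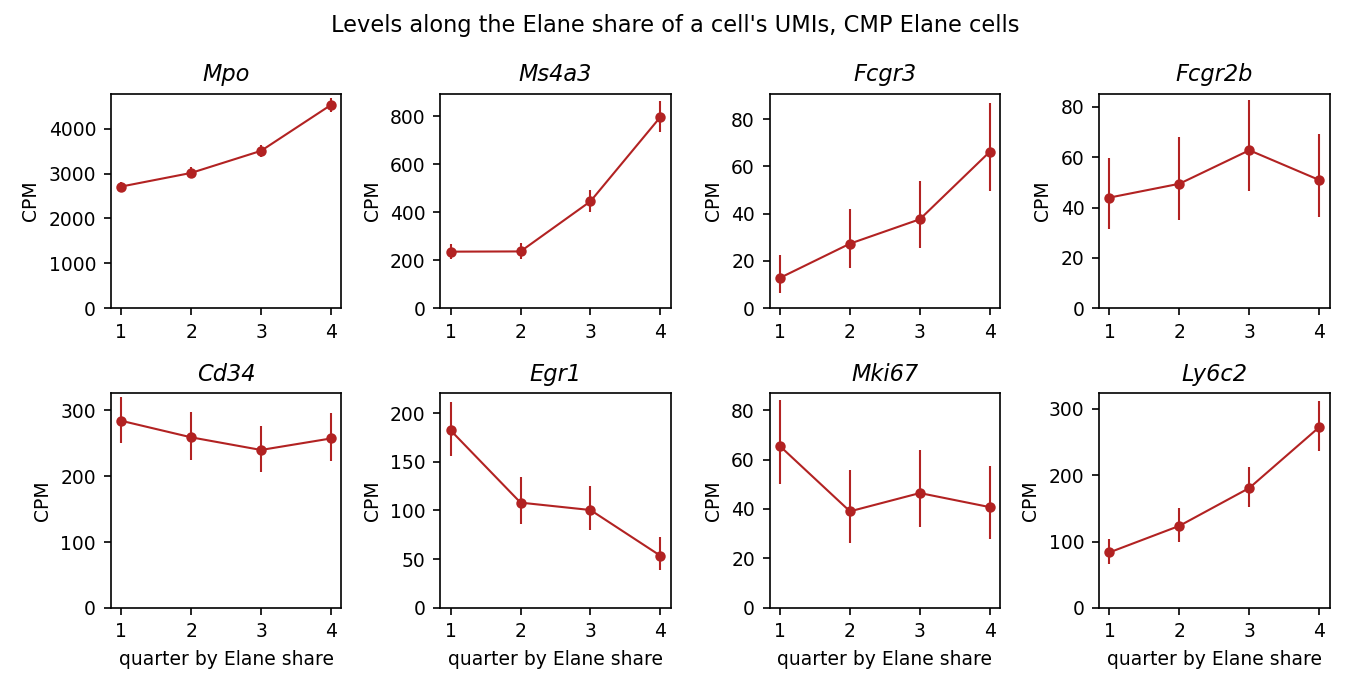
Level (CPM) of 8 genes in the CMP Elane cells, in 4 groups by Elane share of a cell's UMIs from lowest (1) to highest (4); points are sums over 95 or 96 cells and bars 95% Poisson intervals. Mpo, Ms4a3, Fcgr3 and Ly6c2 are highest in group 4, Fcgr3 with 66.2 against 12.9 CPM in group 1, and Egr1 is lowest there with 53.5 CPM.

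Cpa3 and Ly6c2 marked mostly different cells among the CMP Elane cells. This pair was chosen after its values were seen, and the 4 late neutrophil cells are left out of it. Of 377 cells, 70 had 5 or more UMIs of Cpa3 and 35 had 5 or more of Ly6c2, and 1 cell, with 20428 UMIs in all, had both. Any Ly6c2 UMI was seen in 5 of the 70 cells with 5 or more Cpa3 UMIs, 7.14% (2.36 to 15.9%), in 29.5% (20.3 to 40.2%) of the 88 cells with 1 to 4 and in 54.8% (47.9 to 61.5%) of the 219 cells with 0. The median cell had 7470.5, 8147.5 and 8621 UMIs in these 3 sets. In the GMP library the same order was found: Ly6c2 was seen in 57.0% of 519 cells by the rule with 5 or more Cpa3 UMIs, in 82.6% of 717 with 1 to 4 and in 96.4% of 3265 with 0. In the CMP cells with both Elane and Irf8, only 5 of 407 had 5 or more Cpa3 UMIs.

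The 70 Cpa3 cells still carried the granule enzymes. Mpo had 2887 CPM in them and 3595 CPM in the 35 Ly6c2 cells, Elane 1727 and 3013 CPM, and Prtn3 2187 and 3809 CPM. Gata2 had 82.8 CPM in the Cpa3 cells (61.3 to 109) and 0 UMIs in the Ly6c2 cells, which allows up to 10.7 CPM. Apoe had 696 and 17.4 CPM, and Hdc, histidine decarboxylase of mast cells and basophils, 94.7 and 28.9 CPM. The monocyte genes Ly86 and Ms4a6c had 18.6 and 140.3 CPM in the Cpa3 cells, against 199.7 and 605 CPM in the Ly6c2 cells. Ms4a3 had 409 CPM in the Cpa3 cells and 533 CPM in the Ly6c2 cells. Cebpe had 54.1 CPM (37.0 to 76.4) and 20.3 CPM (8.15 to 41.7).

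**Figure D4:**
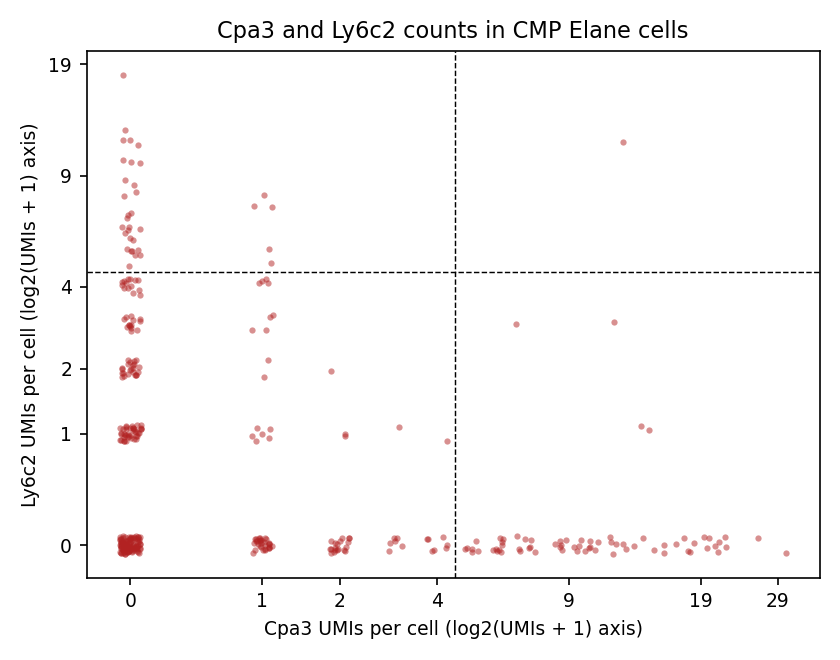
UMIs of Cpa3 (horizontal) and of Ly6c2 (vertical) in each of 377 CMP Elane cells, both on log2(UMIs + 1) axes with small random offsets; dashed lines mark 5 UMIs. Most points lie along the axes, but 26 cells with 1 to 4 Cpa3 UMIs and 5 cells with 5 or more also had Ly6c2 UMIs. Beyond both lines lies 1 cell, where 70 lie right of the vertical line and 35 above the horizontal one.

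The 53 cells with a Cebpe UMI, after the late neutrophil cells were left out, had more of some early granulocyte genes than the 324 without one. Ms4a3 had 669 CPM (595 to 750) with Cebpe and 365 CPM without it, Elane 3563 and 2371 CPM, and Mpo 4042 and 3310.3 CPM. Trem3 had 118 CPM with Cebpe and 56.7 CPM without, and Ly86 36.2 and 101 CPM. Basophil and mast genes moved with it: Cpa3 had 515 CPM with Cebpe and 257 CPM without, Gata2 63.3 and 24.2 CPM, Hdc 63.3 and 31.4 CPM, and Mcpt8 151 and 103 CPM. Prtn3 was close, with 3118 and 3045 CPM, as was Lyz2, with 303 and 298 CPM. The median cell had 7905 UMIs with Cebpe and 8355.5 without.

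Setting CMP Elane cells beside GMP cells by the same rule applies the same limits on Elane and Irf8 UMIs in the CD16/32-negative and CD16/32-positive gates. Gate and library cannot be told apart here. The rule took 56.8% (55.7 to 57.9%) of 8027 GMP cells, and 87.4% after thinning to 3000 UMIs. The median cell by the rule had 8251 UMIs in the CMP library and 8499 UMIs in the GMP library. It took 5 of 10870 LSK cells, kept out of the 10882 barcodes with the most UMIs, and 1 of 6284 MEP cells. Elane, which the rule counted and which is given only as a description, had a median of 15 UMIs per CMP Elane cell and 111 per GMP cell. Its levels were 2653 and 14752 CPM. Of 2700 genes with 50 CPM or more, 61 were called higher in CMP Elane cells (2.26%) and 62 lower (2.30%), with a median log2 ratio of 0.03. Elane is among those called lower.

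Of the 6 granule enzymes, Elane and Prss57 were called lower in CMP Elane cells, though the rule counted Elane. Mpo had 3410 CPM in CMP Elane cells and 4946 CPM in GMP cells, a log2 ratio of -0.54 (-0.56 to -0.51), and Prtn3 3066 and 5183 CPM, -0.76. Ctsg had 3435 and 6689 CPM, -0.96, and Prss57 106 and 338 CPM, -1.68 (-1.84 to -1.52). Lyz2 went the other way, with 379 and 279.7 CPM, a log2 ratio of 0.44. Without the late neutrophil cells it had 299 and 238 CPM, a log2 ratio of 0.33. Camp and S100a9 were called higher, with log2 ratios of 1.72 and 1.04, which turned to -1.62 and -2.76 without the late neutrophil cells. Ms4a3 had 421 and 1999.7 CPM, a log2 ratio of -2.25 (-2.32 to -2.17). Cebpe had 33.2 and 231 CPM, Gfi1 14.6 and 56.6 CPM, and Cebpa 106 and 74.0 CPM. Fcgr3 had 35.0 CPM in CMP Elane cells and 226 CPM in GMP cells, a log2 ratio of -2.69 (-2.97 to -2.43), whereas Fcgr2b had 51.5 and 65.6 CPM, a log2 ratio of -0.35. Ly6c2 had 162 and 1116 CPM. All 16 endoplasmic reticulum genes had log2 ratios under 0, with a median of -0.29, and none was called.

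Cd34 and Ifitm1 were called higher in CMP Elane cells. Cd34 had 261 CPM in CMP Elane cells and 116 CPM in GMP cells, a log2 ratio of 1.17 (1.06 to 1.27). Ifitm1, an interferon-induced gene of the stem and multipotent list, had 324 and 80.8 CPM, and was the 1 gene of that list called. Below the 50 CPM of a call, Flt3 had 25.3 and 3.30 CPM and Angpt1, angiopoietin 1, 48.4 and 12.7 CPM. Of the immediate early genes, 8 of 14 were called higher, none lower and a median log2 ratio of 1.97, against 0.01 over 6764 genes with 10 CPM or more. Junb had 351 and 69.8 CPM and Egr1 114 and 9.76 CPM. The chemokine genes Ccl3, Ccl4 and Cxcl2 had 397, 282 and 104 CPM in CMP Elane cells, and 11.9, 8.26 and 1.42 CPM in GMP cells. The other CMP cells had 413, 352 and 60.7 CPM of these chemokine genes, 240.3 CPM of Egr1 and 499 CPM of Junb. These genes were therefore not high in the CMP Elane cells alone, but they were not even over the CMP library. After thinning, Ccl3 was seen in 48.8% of CMP Elane cells, 41.3% of other CMP cells and 8.26% of the Pf4 cells. For Egr1 these shares were 20.8, 36.2 and 13.2%. Against other CMP cells, the immediate early list had a median log2 ratio of -0.589, with 12 genes under 0 and 1 above. Of these, 1 was called lower.

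**Figure D5:**
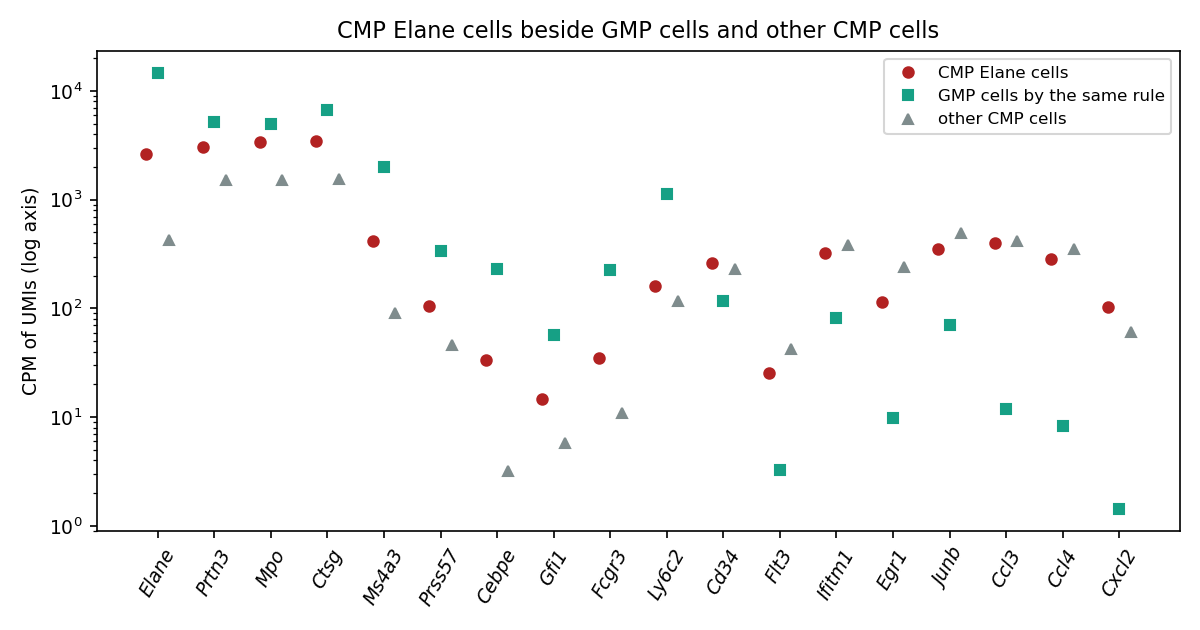
Level (CPM, log axis) of 18 genes in CMP Elane cells (circles), GMP cells by the same rule (squares) and other CMP cells (triangles), 1 library per gate. For the genes from Elane, which the rule counted, to Ly6c2, the CMP Elane cells lie between the other CMP cells and the GMP cells. For Egr1 to Cxcl2 the CMP Elane cells lie nearer the other CMP cells than the GMP cells on this axis, with Egr1 under the other CMP cells and Cxcl2 above them.

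Where Elane shares were matched, some of these differences were smaller and others turned. In this alternative, chosen after the data were seen, 191 CMP Elane cells and 385 GMP cells had an Elane share between 1056 and 3534 CPM, the middle range of the CMP Elane cells. Mpo then had 3264 CPM in CMP Elane cells and 2957 CPM in GMP cells, and Prtn3 3107 and 2739 CPM, so that their log2 ratios turned to 0.14 (0.09 to 0.19) and 0.18 (0.13 to 0.23). Cd34 had 249 and 235 CPM, Ifitm1 368 and 359 CPM, and Angpt1 45.7 and 52.6 CPM, with intervals of the log2 ratio that include 0. Among immediate early genes, Junb kept a log2 ratio of 1.68 and Egr1 of 1.02, while Fos had 0.08 (-0.05 to 0.21), Jund -0.02 (-0.18 to 0.13) and Jun -0.45 (-0.56 to -0.34). Ms4a3 still had 341 and 642 CPM, Fcgr3 32.4 and 121 CPM, Cebpe 26.0 and 163 CPM, and Ccl3 412 and 39.4 CPM. The matched GMP cells also held genes of other lineages: Prg2, an eosinophil granule protein, had 0.635 CPM in the matched CMP Elane cells and 1205 CPM in the matched GMP cells, and Mcpt8 112 and 497 CPM. Late neutrophil cells were not left out of this match. S100a8 had 700 CPM in the matched CMP Elane cells and 3187 CPM in the matched GMP cells, and Camp 419 and 1629 CPM. The median matched cell had 7920 UMIs in the CMP library and 6413 in the GMP library. The part of such cells and of depth in the matched ratios was not tested. Genes called higher in CMP Elane cells numbered 30, and 53 were lower; 29 of the 30 and 16 of the 53 were among those called before matching.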

How the data were processed

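Single-cell RNA of sorted mouse bone marrow was counted with the 10x Genomics platform, 1 library per gate. The authors deposited raw UMI counts per gene and cell barcode. Per the submitters' processing notes, the tools were Seurat 2.3.0, Cell Ranger 2.0.0 and CASAVA 1.8.2, on the build mm10. No source used here states the filters before deposit. Barcodes needed 500 genes, and those with over 10% mt- UMIs were dropped. The LSK matrix was unfiltered, with 737280 barcodes, and its 10882 barcodes with the most UMIs, the number in the design text, were taken first. Counts were summed over the cells of a group and divided by the group's total (CPM), in Python 3.11.15 with numpy 2.4.6, scipy 1.17.1, pandas 2.3.3 and matplotlib 3.10.9. Sums have exact Poisson intervals, ratios exact conditional binomial intervals and shares Clopper-Pearson intervals, all at 95%. No test was run, because each gate is 1 library and cells are not replicates. The calculation was checked on simulated counts.

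Genes named are, per comparison, the 12 called genes farthest from equal levels on either side, the gate antigens, the members of the granule enzyme, transcription factor and cytokine receptor lists with 10 CPM or more, and up to 4 of each other list; Mki67, Ltf and Lcn2 fall outside this rule and were chosen after their values were seen. The members and gene lists were chosen with earlier results of these data known. No doublets were removed in the values reported; leaving out the cells with the highest doublet scores (scanpy 1.11.5) was an alternative, as were other UMI limits, filters, scalings and minimum levels. Of 27998 gene IDs, 27645 were in the annotation table.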

Additional observations from a re-analysis of the deposited data

How the results depend on the processing

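The share of CMP cells moved with the rule, to 12.98% with a minimum of 3 Elane UMIs, 7.08% with 10, 21.2% with no limit on Irf8 and 2.91% with no Irf8 UMI at all. With no Irf8 UMI, 32 genes were higher than in other CMP cells and 96 higher than in GMP cells. With cells thinned to 3000 UMIs, 30 were higher and 72 lower than in other CMP cells; the cause was not tested. A minimum of 10 CPM gave 45 higher and 144 lower against other CMP cells, and 202 and 206 against GMP cells. With no minimum beyond 3 UMIs these were 1824 and 591, and 2669 and 530, since more genes enter and a gene near 0 in the smaller group is set to the floor of 3 UMIs, which adds to the higher calls. Against the 1552 CMP cells with no Elane UMI and fewer than 5 of Irf8, 50 genes were higher and 104 lower. In the matched Elane range, 30 were higher than in GMP cells, with fewer cells. Median-of-ratios and TMM factors shifted log2 ratios by at most 0.072 and gave 23 higher and 28 lower against other CMP cells, 45.1% higher against 35.8%. The mt- limit, 1000 genes, doublet scores and totals without 4 granule genes kept each count within 1.5 times.

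Among called genes, signs that turned were, against GMP cells, Pf4 with no Irf8 UMI (-0.205), and against those 1552 cells, Irf8 (0.889), which those cells' own choice sets. Without the late neutrophil cells, chosen after seeing the data, Camp (-0.284), S100a8 (-0.098) and Ngp (-0.225) turned against other CMP cells, and Camp (-1.619) and S100a9 (-2.758) against GMP cells, since those cells held their UMIs. In the matched range, also chosen after seeing the data, Rgs1 (-0.248), Camp (-1.959), S100a9 (-2.124) and Car2 (-0.186) turned, and of genes not called, Mpo (0.143), Prtn3 (0.182), Gata2 (-1.728), Cpa3 (-1.863), Angpt1 (-0.202), Cebpa (-0.133), Lyz2 (-0.913), Jun (-0.453) and Jund (-0.024) were among those that did; the cause was not tested. No paired analysis was possible because no result comes from a test and each gate is 1 library.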

Other observations

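Outside the CMP and GMP gates, cells that met the same rule were few. The LSK library had 5 of 10870 cells, up to 69 Elane UMIs in a cell, and the MEP library 1 of 6284 cells, with 142 Elane UMIs in the highest. Any Elane UMI was seen in 135 LSK cells and 9 MEP cells.

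Mcpt8 counts of 5 or more were found in 17 of the 381 CMP Elane cells, 4.46%, and in 41 of the other CMP cells, 1.23%.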
